A study of Rattus norvegicus with 2 samples.

Results

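The genes described here copy the genome and time the copying: the origin recognition and licensing factors, the MCM helicase and its GINS partner, the sliding clamp PCNA and its loader, the replicative DNA polymerases, ribonucleotide reductase, the cyclins with their kinases and inhibitors, and the E2F transcription factors. They were taken by a rule on gene symbols, and 67 of the 15409 symbols in the expression table met it. The rule itself was set with earlier results of these data known. Another 7 genes of these families, Ccna1, Ccnb2, Ccnb3, Cdk3, Cdkn1c, Cdkn2d and E2f1, were not analysed here. The prefix rule for the inhibitors also took Cdkn2aip and Cdkn2aipnl, which are named for a link to CDKN2A and are not kinase inhibitors themselves. The cells were RBL-2H3, a rat basophilic leukaemia line used as a model of mast cells. In 1 library the cells had received PM2.5, fine airborne particles, along with IgE and its antigen DNP-HSA, a pair that crosslinks the high-affinity IgE receptor. The other library is from cells that had received normal saline. The labels leave it unsaid if IgE and antigen were also added to the saline cells, and they state neither a dose unit nor a time. The treated library carries the number 100 in its title, PM100, and its values were taken from the column named x100 by that number alone, so every direction below rests on this match.

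Origins are marked by the origin recognition complex, and CDC6 and CDT1 then load the MCM ring onto them in G1. At the start of S phase, CDC45 and GINS turn the ring into an active helicase, polymerases alpha, delta and epsilon copy the strands, and PCNA, loaded by the RFC complex, holds the polymerases on DNA. D cyclins with CDK4 or CDK6 and E cyclins with CDK2 phosphorylate RB proteins, which frees E2F factors, and E2F in turn activates many of the replication genes. A leukaemia line such as RBL-2H3 divides in culture, so this machinery is in use before any treatment.

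Each condition had 1 library, so differences could not be set against replicates and no test between the conditions was made. The PM2.5 plus IgE and antigen library held 3964955 reads and the saline library 7279671. The values are the authors' normalised counts, on which 1 read was worth 1.65 in the PM2.5 library and 0.867 in the saline library. A fold is the log2 ratio of the PM2.5 over the saline library, with 1 added to each normalised count. Intervals are exact 95% Clopper-Pearson intervals of that ratio without the added 1. They cover the counting error of independent reads only. Reads are not independent molecules, so the intervals may be too narrow even for counting error, and they hold no replicate error. A gene was called higher or lower where its log2 fold reached 1 or -1 and its normalised count was 1 or more in either library. Of 10 mast cell markers 9 were analysed and all 9 had reads in both libraries, summing to 25759 in the PM2.5 library and 27264 in the saline library. Of the 9 folds 6 were above 0, among them Fcer1a (674 in the PM2.5 library, 498 in the saline library), and 3 were below 0: Hdc (1178 in the PM2.5 library, 2473 in the saline library), Gata2 (-0.45) and Kit (-0.21). No lymphocyte marker of 6 was analysed. The 4 macrophage markers analysed summed to 704 in the PM2.5 library, against 1471 in the saline library. Most of this sum was Csf1r (472 against 1215), while Cd14 (193 against 198) and Adgre1 (38.0 against 41.6) were near equal. The 4 fibroblast markers summed to 306 against 226, mostly from Col3a1 (277 against 209). The single epithelial marker, Krt8, stood at 19.8 against 9.54. Cd68 and Dcn were at 0 in the PM2.5 library and Pdgfra at 0 in the saline library. The part of these markers in the results below was not tested.

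Promoter sequences were searched for motifs known from cell-cycle genes. Of the 67 genes, 52 had a promoter in the RefSeq table of build GRCr8, from 250 bases before to 50 after the start; Ccna2, Ccnd1, Ccnd2, Ccne2, Cdc6, Cdk6, E2f2, E2f4, E2f5, E2f8, Gins4, Mcm4, Orc1, Orc4 and Rrm2 were not searched. An E2F motif, searched as TTTCGCGC, TTTGGCGC or TTTCCCGC on either strand, was found in 21 of the 52 (40.4%), against 3.53% of the 8728 promoters of all analysed symbols. CCAAT, on either strand, was found in 25 of the 52 (48.1%) and 37.8% of the 8728. The cell cycle homology region, searched as TTTGAA or TTCGAA on either strand, was found in 9 of the 52 (17.3%) and 13.8% of the 8728. Over all 24206 RefSeq promoters, analysed or not, the shares were 1.87% for the E2F motif, 37.8% for CCAAT and 19.6% for the cell cycle homology region. For that region the share of the 52 thus lay between the 2 backgrounds. E2F words can overlap each other where a site is palindromic. A match is a string of letters and not a measured binding site. In 14 genes an E2F word lay within the 200 bases before the start. The stretches shown are of the 3 of these genes with the highest and the 3 with the lowest folds, so that the motif can be seen beside opposite differences. They read 5′ to 3′ along the gene, and capitals mark the E2F words.
Hells, chr1:246113929-246114128, plus strand: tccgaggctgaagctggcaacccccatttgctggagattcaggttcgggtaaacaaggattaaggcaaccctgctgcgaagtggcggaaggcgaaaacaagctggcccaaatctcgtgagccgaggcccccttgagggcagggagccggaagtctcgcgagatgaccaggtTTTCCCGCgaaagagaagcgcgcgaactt
Mcm8, chr3:140539447-140539646, plus strand: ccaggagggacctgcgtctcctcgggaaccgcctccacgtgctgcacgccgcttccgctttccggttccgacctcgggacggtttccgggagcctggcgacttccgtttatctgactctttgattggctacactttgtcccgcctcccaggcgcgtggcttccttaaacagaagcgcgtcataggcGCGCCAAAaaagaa
Pola1, chrX:62342356-62342555, minus strand: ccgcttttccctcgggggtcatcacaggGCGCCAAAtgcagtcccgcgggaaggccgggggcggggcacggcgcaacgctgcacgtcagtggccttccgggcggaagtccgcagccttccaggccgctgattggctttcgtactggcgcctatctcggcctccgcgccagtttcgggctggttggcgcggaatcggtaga
Mcm2, chr4:122918095-122918294, minus strand: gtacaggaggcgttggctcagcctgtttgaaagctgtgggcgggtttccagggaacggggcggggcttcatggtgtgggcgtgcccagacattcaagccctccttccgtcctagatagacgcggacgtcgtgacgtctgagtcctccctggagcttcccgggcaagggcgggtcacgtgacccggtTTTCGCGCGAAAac
E2f3, chr17:34810216-34810415, plus strand: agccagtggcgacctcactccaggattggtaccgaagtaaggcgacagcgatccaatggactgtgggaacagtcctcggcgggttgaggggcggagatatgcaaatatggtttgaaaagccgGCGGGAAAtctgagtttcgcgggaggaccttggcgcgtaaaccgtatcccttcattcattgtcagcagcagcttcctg
Mcm7, chr12:22163179-22163378, minus strand: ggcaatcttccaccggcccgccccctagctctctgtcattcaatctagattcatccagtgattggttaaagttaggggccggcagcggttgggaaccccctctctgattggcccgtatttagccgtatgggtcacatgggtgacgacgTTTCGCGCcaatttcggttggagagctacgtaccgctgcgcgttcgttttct
Mcm2 carries overlapping words on opposite strands next to the start, and its fold was the lowest of the 6 genes, at -0.66. Hells, with the highest fold of the 67 genes, also carries its word close to the start. The median log2 fold was 0.31 over the 21 genes with an E2F motif and -0.06 over the 31 without. The 0.31 was the fold of Orc3, whose highest transcript taken alone was at -2.84. The next lower fold among the 21 was that of Mcm6, at -0.03. With the motif the folds ran from -0.66 to 4.90, the value of Hells against a floor of 3 reads in the saline library. The exact interval of Hells began lower, at 4.54. Without the motif they ran from -2.32 to 1.15. For the cell cycle homology region the medians were 0.37 over the 9 genes with it and -0.03 over the 43 without. The 0.37 was the fold of Cdk1, and the next lower fold among the 9 was that of Mcm7, at -0.14. For CCAAT they were -0.03 over the 25 with it and 0.02 over the 27 without. The genes without a motif include Cdkn2a, with 0 and 2 reads. The part of these motifs in the folds was not tested.

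As a group the 67 genes stayed close to the level of the saline library. Their median log2 fold was 0.06 in the PM2.5 library, beside -0.07 over the 15097 symbols that passed the filter on low values, which all 67 did. With Hells set at its bound and Cdkn2a left out, for the reasons given below, the median was 0.07. Of the 67 folds 36 were above 0 (53.7%), beside 45.7% of all symbols. 7 genes (10.4%) were at least 2-fold higher, beside 12.1% of all symbols. 2 genes (2.99%) were at least 2-fold lower, beside 19.1% of all symbols. Low counts give large folds easily, so the symbols with a mean of at least 50 over both libraries were also counted, a filter chosen after the data were examined. It left out 5 of the 67 genes, Cdkn2a, E2f2, E2f5, Hells and Pole3. Of the other 62 genes, 6 (9.68%) were higher, beside 6.85% of symbols at that level, and 1 (1.61%) was lower, beside 7.4%. The quartiles of these 62 folds were -0.22 and 0.55, against -0.48 and 0.42 over the 9041 symbols at that level. Counting intervals lay wholly above 0 for 25 of the 62 genes (40.3%, beside 31.6%) and wholly below 0 for 16 (25.8%, beside 35%). The normalised counts of the 67 genes summed to 27857 in the PM2.5 library and 26357 in the saline library. A different share of cycling cells and a different amount of RNA per cell cannot be told apart in such bulk libraries.

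**Figure D1:**
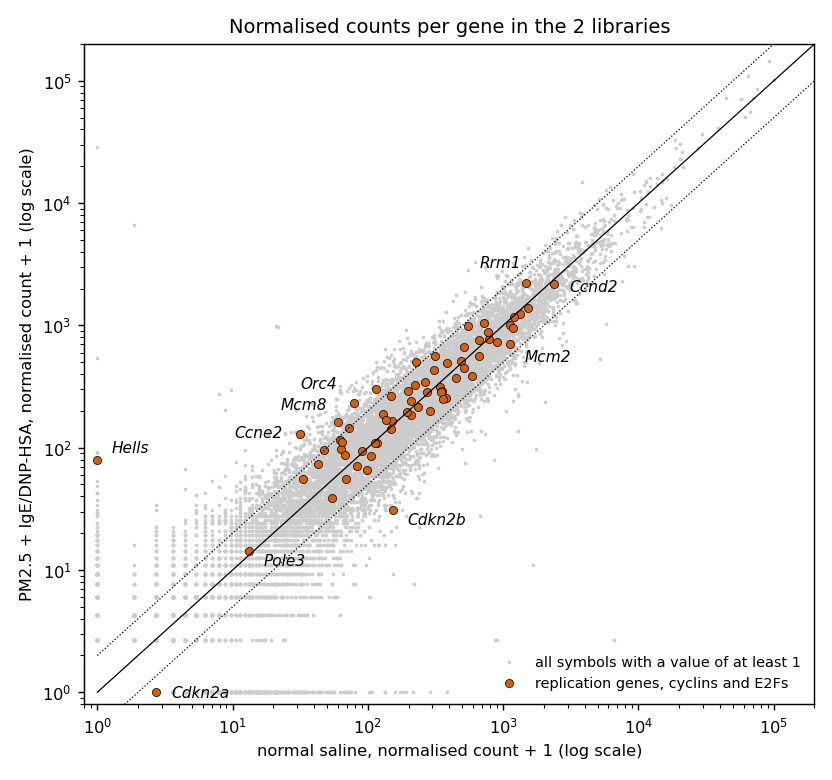
Normalised counts plus 1 of each gene in the PM2.5 plus IgE and antigen library (vertical, log scale) against the saline library (horizontal, log scale); grey points are all symbols with a value of at least 1, orange points the 67 genes, the solid line equality and the dotted lines 2-fold. Most orange points follow the solid line, with Hells, Ccne2, Orc4, Mcm8, Pola1, Rfc1 and Pole2 above the upper dotted line and Cdkn2b and Cdkn2a, the last with 0 and 2 reads, below the lower one.

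Among the 8 licensing genes, Orc4 alone was past 2-fold. Orc4, a subunit of the origin recognition complex, had a normalised count of 229.6 (139 reads) in the PM2.5 library, against 78.1 (90 reads) in the saline library. The shallower library thus held more reads of it, and the fold was 1.54 (interval 1.16 to 1.96). The other subunits lay between -0.14 for Orc5 and 0.31 for Orc3, each with an interval that held 0; the highest transcript of Orc3 taken alone was at -2.84, as described with the transcripts below. Cdc6, the loader of the MCM ring, stood at 286 against 273 (0.06, interval -0.21 to 0.34). Cdt1, its partner in loading, was slightly lower in the PM2.5 library, at 282 against 344 (-0.28, interval -0.55 to -0.02). Within the recognition complex, then, the interval of Orc4 lay clear above those of the 5 other subunits.

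The 6 subunits of the MCM ring, which act as 1 complex with 1 copy of each, were close to equal in sum. Together they had 6308 in the PM2.5 library, against 6689 in the saline library, a log2 ratio of -0.08. Their folds did not line up with each other beyond counting error. Mcm4 was higher, at 1036 against 723 (0.52, interval 0.37 to 0.67). Mcm2 was lower, at 709 against 1117 (-0.66, interval -0.82 to -0.50). Between these, Mcm3 was at -0.04, Mcm5 at -0.11, Mcm6 at -0.03 and Mcm7, the ring subunit with the highest mean (1381 against 1520), at -0.14, and of these 4 only the interval of Mcm7 lay below 0 (-0.26 to -0.02). Mcm8 and Mcm9 share the MCM fold but form a separate helicase that works in homologous recombination. Mcm8 had 160 (97 reads) in the PM2.5 library, against 59.0 (68 reads) in the saline library, a fold of 1.43 (interval 0.98 to 1.91). Mcm9 had 111 (67 reads) against 63.3 (73 reads), a fold of 0.80 (interval 0.31 to 1.30). Both thus stood above every subunit of the ring by their point values, and the interval of Mcm8 also cleared that of Mcm4, the highest of them.

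GINS, the 4-part collar of the active helicase, also held genes on both sides. Gins4 was just inside the 2-fold line, with 144 (87 reads) in the PM2.5 library and 72.0 (83 reads) in the saline library (0.99, interval 0.55 to 1.45). Gins1 (0.88) and Gins3 (0.61) were also higher, with intervals above 0. Gins2, the subunit with the most reads, was lower, at 248 (150 reads) against 358 (413 reads), a fold of -0.53 (interval -0.81 to -0.26). These opposite differences left the summed counts close, at 601 in the PM2.5 library and 554 in the saline library.

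All 6 genes of the clamp and its loader were higher in the PM2.5 library, each with an interval above 0. Beside this, 45.7% of all symbols had a fold above 0. Of symbols with a mean of at least 50, 31.6% had an interval above 0. With equal library totals, the interval of Rfc2 lies near enough to 0 for its side to change. PCNA encircles DNA and tethers the polymerases, and Pcna had 981 (594 reads) in the PM2.5 library, against 548 (632 reads) in the saline library (0.84, interval 0.68 to 1.004). Rfc1, the large subunit of the clamp loader, had 504 (305 reads) against 227 (262 reads), a fold of 1.15 (interval 0.91 to 1.39). The small subunits were lower in fold, at 0.55 for Rfc3, 0.54 for Rfc4, 0.49 for Rfc5 and 0.20 for Rfc2 (interval 0.03 to 0.37). The 6 genes summed to 3285 in the PM2.5 library, against 2160 in the saline library, a log2 ratio of 0.60.

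The subunits of the polymerases went both ways. Pola1, the catalytic subunit of polymerase alpha, which starts each new strand with primase, had 301 (182 reads) in the PM2.5 library, against 114 (132 reads) in the saline library (1.38, interval 1.06 to 1.73). Its partner Pola2 was at 0.22, with an interval that held 0 (-0.08 to 0.53). Of polymerase delta, the catalytic subunit Pold1 was at -0.26 and Pold2 at -0.53, both with intervals below 0, whereas the accessory subunit Pold3 had 266 against 148 and stood at 0.84 (interval 0.52 to 1.16). Of polymerase epsilon, the catalytic subunit Pole was lower, at 945 against 1180 (-0.32, interval -0.46 to -0.18). Its second subunit Pole2 was just past 2-fold higher, with 94.1 (57 reads) against 46.0 (53 reads), a fold of 1.02 (interval 0.47 to 1.60). Pold4 (-0.06), Pole4 (0.36) and Pole3 (0.11, with only 8 and 14 reads) had intervals that held 0. The 10 genes summed to 2841 in the PM2.5 library and 2875 in the saline library, so that the differences of single subunits cancelled in the sum.

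Ribonucleotide reductase makes deoxyribonucleotides. Rrm1, its large subunit, had 2235 (1353 reads) in the PM2.5 library, against 1479 (1705 reads) in the saline library (0.60, interval 0.49 to 0.70). Rrm2, the small subunit that limits activity to S phase, was less different, at 885 against 767 (0.21, interval 0.05 to 0.36). Timeless, which protects stalled forks together with TIPIN, had 444 (269 reads) against 513 (591 reads) over all its transcripts, a fold of -0.21 (interval -0.42 to 0.004); its transcripts differed far more, as described below. Hells encodes a chromatin remodeller needed for DNA methylation at repeats. It had 47 reads (a normalised count of 77.6) in the PM2.5 library and 0 reads in the saline library, all on its single listed transcript. Against a floor of 3 reads in the saline library this was at least 29.8-fold higher, and the exact interval of the log2 ratio began at 4.54, which allows a smaller fold than that bound.

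**Figure D2:**
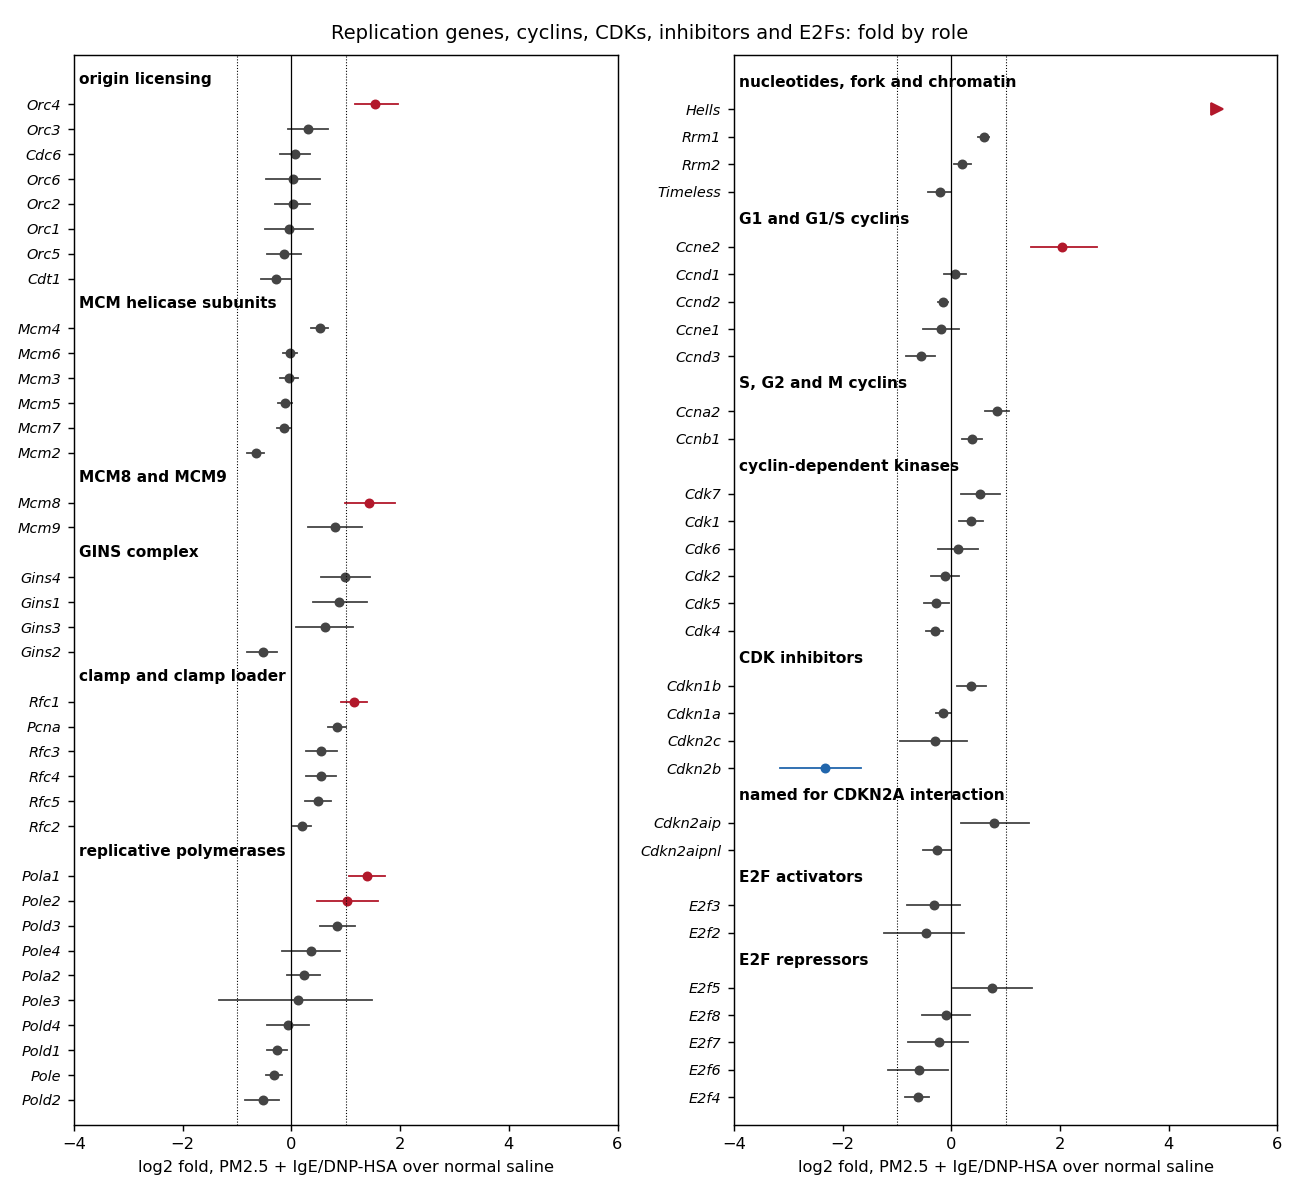
Log2 fold of the PM2.5 plus IgE and antigen library over the saline library for 66 of the 67 genes, grouped by role; points are folds, bars exact 95% counting intervals with no replicate error, dotted lines 2-fold, red at least 2-fold higher and blue at least 2-fold lower. The triangle for Hells marks its bound against a floor of 3 reads; Cdkn2a, with 0 and 2 reads, is left out. All 6 genes of the clamp and clamp loader lie above 0, beside 45.7% of all symbols, while the MCM ring, the polymerases and GINS have points on both sides.

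The cyclins went both ways, also within a type. D cyclins carry growth signals to CDK4 and CDK6. Ccnd2, the D cyclin with the most reads, had 2162 (1309 reads) in the PM2.5 library and 2391 (2757 reads) in the saline library (-0.15, interval -0.24 to -0.05). Ccnd3 was lower, at 256 against 379 (-0.56, interval -0.84 to -0.30), and Ccnd1 was at 0.08 with an interval that held 0. The E cyclins, which open S phase with CDK2, diverged. Ccne2 had 127 (77 reads) in the PM2.5 library, against 30.4 (35 reads) in the saline library, a fold of 2.03 (interval 1.47 to 2.69). Without the added 1 the ratio was 4.19 times. Ccne1 had 183 (111 reads) against 208 (240 reads), a fold of -0.18 (interval -0.52 to 0.15). The intervals of these paralogues were far apart, so that the ratio of Ccne2 to Ccne1 differed between the libraries beyond counting error. Of the later cyclins, Ccna2, which serves S and G2 phases, had 558 (338 reads) against 311 (358 reads), at 0.84 (interval 0.63 to 1.06). Ccnb1, which drives entry into mitosis, had 669 against 511 (0.39, interval 0.20 to 0.57).

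Summed over their transcripts, all 6 kinases stayed within 2-fold; the highest transcript of Cdk1 taken alone was at 1.28, as its transcripts went opposite ways. Cdk7, the kinase that activates other CDKs, was highest at 0.54 (interval 0.17 to 0.90, 113 and 148 reads in the PM2.5 and saline libraries). Cdk1, the mitotic kinase, had 495 in the PM2.5 library and 384 in the saline library (0.37, interval 0.15 to 0.58). Cdk4 was lower, at 733 against 905 (-0.30, interval -0.47 to -0.14), and so was Cdk5, a kinase best known from neurons (-0.27, interval -0.51 to -0.05). Cdk2 (-0.12) and Cdk6 (0.13) had intervals that held 0.

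Among the inhibitors, Cdkn2b stood apart. It encodes p15INK4b, which blocks CDK4 and CDK6, and had 29.7 (18 reads) in the PM2.5 library, against 153 (176 reads) in the saline library, a fold of -2.32 (interval -3.15 to -1.66). Cdkn2a, the neighbouring gene for p16INK4a and ARF, had 0 and 2 reads; it counts as lower by the size rule, but both values are under the floor and no fold is given. Cdkn2c, of the same INK4 family, was at -0.31 with an interval that held 0. Cdkn1a, the p53-inducible inhibitor p21, was nearly equal, at 1009 (611 reads) in the PM2.5 library and 1115 (1286 reads) in the saline library (-0.14, interval -0.29 to -0.004). Cdkn1b, which encodes p27, was higher, at 340 against 263 (0.37, interval 0.11 to 0.63). Of the genes named for CDKN2A, Cdkn2aip was at 0.79 and Cdkn2aipnl at -0.26.

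No E2F gene was past 2-fold. The activators E2f2 (-0.47) and E2f3 (-0.31) had intervals that held 0, on 23 and 51 reads in the PM2.5 library and 61 and 121 reads in the saline library. E2f4, which represses genes in resting cells together with RB family proteins, had 385 (233 reads) in the PM2.5 library, against 592 (682 reads) in the saline library (-0.62, interval -0.84 to -0.40). E2f6, a repressor that works without RB proteins, was at -0.59 (interval -1.16 to -0.06). E2f5 was the single E2F gene on the higher side, at 0.75 (interval 0.04 to 1.48, 33 and 37 reads). The atypical repressors E2f7 (-0.23) and E2f8 (-0.09) had intervals that held 0.

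The transcripts of these genes were also compared. Of the 17 genes with more than 1 listed transcript, 16 had at least 50 reads in each library. In 2 of the 16 (12.5%), Timeless and Orc3, a transcript's share of the gene's reads differed by at least 50 percentage points, beside 10.8% of the 2065 symbols with several transcripts at that depth; this size of difference was chosen after the values were seen. The largest share difference of a gene had a median of 5.88 points over the 16 genes and 6.22 points over the 2065 symbols. Neither value sets these genes apart from the other symbols. For Timeless, ENSRNOT00000083899 held all 269 reads in the PM2.5 library (95% interval 98.6% to 100%), against 62 of 591 reads, or 10.5% (8.14% to 13.2%), in the saline library. The other transcript, ENSRNOT00000047241, had 0 reads in the PM2.5 library and 529 in the saline library, at least 92.6-fold lower against the floor, while the exact interval of the log2 ratio ended at -6.23 and so allows a smaller fold. For Orc3, ENSRNOT00000084643 held 91 of 102 reads (89.2%, interval 81.5% to 94.5%) in the PM2.5 library and 0 of 157 in the saline library, which had all its reads on ENSRNOT00000011085. For both genes the leading transcript thus differed between the libraries while the sum stayed within 2-fold. The 3 transcripts of Cdk1 shifted less: ENSRNOT00000081113 held 16.7% of reads in the PM2.5 library and 56.2% in the saline library, and ENSRNOT00000086806 held 63.3% and 33.4% in that order. Cdkn2b, with 18 reads in the PM2.5 library, was too shallow there for the count above. Its transcript ENSRNOT00000008898 had 0 reads in the PM2.5 library and 133 in the saline library, while ENSRNOT00000092196 had 18 and 43 reads, a fold of -0.32 with an interval that held 0 (-1.21 to 0.50). The difference in the sum of Cdkn2b thus lay on 1 transcript. Pola1 had 28 reads on ENSRNOT00000076359 in the PM2.5 library and 0 in the saline library, but its main transcript ENSRNOT00000075997 was also higher, at 1.33. The rule by which reads shared by overlapping transcripts were assigned is not stated in the labels or headers, and whether that assignment differed between the libraries was not tested.

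**Figure D3:**
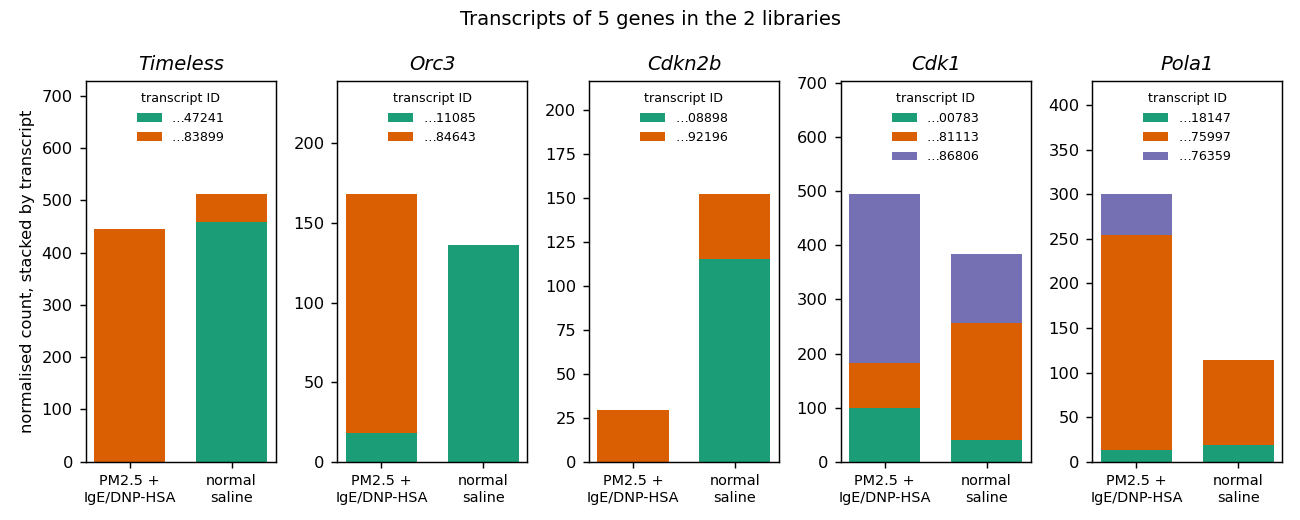
Normalised counts of each listed transcript, stacked per gene, in the PM2.5 plus IgE and antigen library (left bar) and the saline library (right bar) for Timeless, Orc3, Cdkn2b, Cdk1 and Pola1; colours are transcripts, named by the last digits of their Ensembl identifiers, and each bar is 1 library without error. The colours swap for Timeless and Orc3 at similar bar heights, and 1 of the Cdkn2b transcripts is missing in the PM2.5 library.

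The authors' deposited table gives a p-value for each of the 89 transcripts of these genes. A single one was under 0.05, that of Timeless transcript ENSRNOT00000083899 (p = 0.0397), which was also the only one of the 89 among the 57 transcripts the authors selected. Of all 20367 transcripts in the authors' deposited table, 65 were under 0.05. The lowest adjusted p-value in the authors' deposited table was 0.920, so that none of these differences passed a corrected threshold there. Among the 89 transcripts alone, the next lowest p-values in the authors' deposited table were those of the Orc3 transcript ENSRNOT00000011085 (p = 0.0812), Ccne2 (p = 0.119) and Orc4 (p = 0.126).

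Other genes of the same pathways were taken from lists made by function. All counts of these lists stand beside the 12.1% of all symbols that were higher and the 19.1% that were lower. Among symbols with a mean of at least 50 over both libraries, these shares were 6.85% and 7.4%. Of 24 further replication factors analysed (of 25), 3 (12.5%) were at least 2-fold higher and 0 lower, with a median log2 fold of 0.11. For the higher side this was close to the share over all symbols. The higher ones were Atad5 (1.33, interval 0.83 to 1.88), which unloads PCNA, Dbf4 (1.08, interval 0.63 to 1.57), the activating subunit of the CDC7 kinase, and Rpa3 (1.05, interval 0.41 to 1.75), the small subunit of the single-strand binding complex. Rpa1, the large subunit of that complex and the gene of this list with the highest mean, was at -0.12. Prim1, the primase that works with Pola1, was at 0.92 and Gmnn, the inhibitor of CDT1, at 0.91. Cdc45 was at -0.31 and Cdc7 at -0.44. For nucleotide synthesis, 2 of 15 genes (13.3%) were higher and 0 lower, with a median of 0.36. These were Rrm2b (1.33, on 22 and 16 reads), the p53-inducible small subunit of ribonucleotide reductase, and Dck (1.18, interval 0.68 to 1.71), a salvage kinase. The abundant Impdh2 was at 0.24, and Cad, which starts pyrimidine synthesis, was lowest at -0.89.

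Among 12 RB family genes and partners of E2F, 2 (16.7%) were at least 2-fold higher and 0 lower, with a median of 0.42. Lin9, a core subunit of the DREAM and MuvB complexes, had 92.5 (56 reads) in the PM2.5 library, against 22.6 (26 reads) in the saline library, a fold of 1.99 (interval 1.34 to 2.77). Mybl1 was at 1.48 (interval 0.84 to 2.21). The pocket proteins that hold E2F, Rb1 (0.52), Rbl1 (0.41) and Rbl2 (0.43), lay close together, and Tfdp1, the E2F dimer partner with the highest mean, was at -0.34. Lin37 (-0.71), Foxm1 (-0.64) and Mybl2 (-0.33) were lower within 2-fold, with intervals below 0. Among 20 regulators of CDKs, 2 (10%) were higher and 1 (5%) lower, beside the same 12.1% and 19.1%, with a median of -0.01. The higher ones were Ccnc (1.13, interval 0.73 to 1.55), the cyclin of CDK8, and Mnat1 (1.02, interval 0.72 to 1.32), which joins CDK7 and cyclin H. The lower one was Pkmyt1, an inhibitory kinase of CDK1, at 116 (70 reads) in the PM2.5 library and 260 (300 reads) in the saline library (-1.16, interval -1.57 to -0.79). Btg1, an antiproliferative gene with the highest mean of this list, was at 0.51. Among 9 genes of S phase chromatin, 0 were higher and 0 lower, with a median of 0.13; Nasp, a histone chaperone, was at 0.88, Slbp, which binds histone mRNA, at 0.74 and the maintenance methyltransferase Dnmt1 at -0.04. Uhrf1, which recruits DNMT1 to newly copied DNA, was at -0.004.

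**Figure D4:**
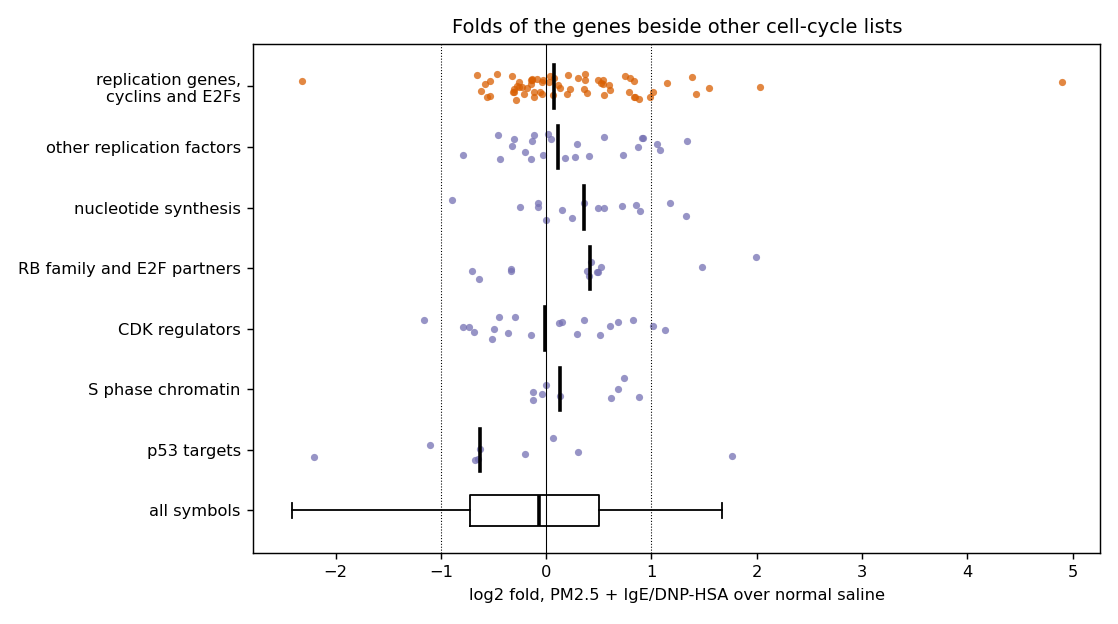
Log2 fold of the PM2.5 plus IgE and antigen library over the saline library for each gene (points) of the 67 genes, without Cdkn2a and with Hells at its bound, and of 6 lists of other cell-cycle genes; black bars are medians, dotted lines 2-fold, and the box at the bottom holds the quartiles of all 15097 symbols with whiskers at the 5th and 95th percentiles. The medians run from -0.63 for the p53 targets to 0.42 for the RB family and E2F partners, and that of the 67 genes is 0.07.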

How the data were processed

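Total RNA of RBL-2H3 cells was made into strand-specific libraries, per the labels' protocols. Tools listed without a role in the submitters' processing notes are STAR 2.5, DESeq 1.22.1, Cuffnorm and FastQC. Genome build, annotation release and read assignment: not given in the sources used here. By its values, the deposited table holds the log2 of a normalised count plus 1 for each transcript. Undoing the log2 left whole multiples of a single step (100% of values, within 1e-06 reads), and so gave the reads and size factors (0.605 for PM2.5 plus IgE and antigen, 1.15 for saline). The authors' deposited p-values were used only as listed. A further 4 per-sample columns were not used. Transcripts were summed by symbol; 1276 had none.

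The treated column was matched by the number 100 in the title and the header. The members and lists were chosen with earlier results of these data known. Genes named in full are those past the size rule with at least 10 reads in 1 library, per role those with the largest fold and the highest mean, and, in the other lists, the 2 largest folds and the highest mean; further genes named were chosen after their values were seen. Alternatives were the added value, the filter, 3 scalings, the highest transcript alone and lncRNA transcripts left out; the filter on a mean of 50 was added after the data were examined. Intervals and the size rule were run on simulated data of independent reads, the model that the intervals assume. That run holds no replicate error and cannot show how the intervals fare with it. Promoters are from RefSeq (GRCr8), also used for the order of neighbouring genes, and none of its coordinates are converted. Work was done in Python 3.11.15 with SciPy 1.17.1, pandas 2.3.3, NumPy 2.4.6 and Matplotlib 3.10.9.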

Additional observations from a re-analysis of the deposited data

How the results depend on the processing

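The 7 genes at least 2-fold higher became 6 with 5 added (Pole2 at 0.96), with equal library totals (Pole2 at 0.97) and with a mean filter of 50, and 8 with TMM factors (Gins4 at 1.001) or the median of ratios (Gins4 at 1.01). With the highest transcript alone 9 were higher and 3 lower: Timeless stood at 3.02, Cdk1 at 1.28, Orc3 at -2.84 and Cdkn2b, then with 0 reads in the PM2.5 library, at -6.86, and Pole4 turned to -0.03. The 2 lower genes became 1 with 5 added and with filters of 10 or 50, since Cdkn2a no longer counted. Over all symbols, 1023 were higher and 1650 lower with 5 added, 1080 and 1477 with a filter of 10, 707 and 813 with one of 50, and 619 and 669 with one of 50 on the mean, which was chosen after the data were examined, against 1826 and 2876. The scalings shifted all folds by -0.05, 0.01 and 0.02, and with equal totals Orc2 (-0.03) and Orc6 (-0.02) were below 0. Intervals were not recomputed with these shifts, and some lie near enough to 0 for their side to change. Among them are Rfc2 (from 0.03) and E2f5 (from 0.04) with equal totals. With the median of ratios, a shift of 0.022, they include Mcm7 (up to -0.018) and Cdkn1a (up to -0.004). The median of the 67 genes ran from 0.01 with equal totals to 0.09 with the median of ratios, against 0.06 as reported. That of all symbols ran from -0.12 with equal totals to -0.03 with the mean filter of 50, against -0.07. The counting intervals reached 0.29 to either side in the median. They belong to single genes and do not measure how stable such medians are. Few reads limit Pole3, E2f2, E2f5, Cdkn2a, Cdkn2b and Hells, whose log2 fold was 4.05 with 5 added. No paired analysis was possible because each condition had 1 library.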

Other observations

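Cdkn1a, described above, is a p53 target, and other p53 targets lay on both sides of 0. Of 9 analysed genes (of 13), 1 (11.1%) was at least 2-fold higher in the PM2.5 plus IgE and antigen library and 2 (22.2%) at least 2-fold lower. Over all symbols 12.1% were higher and 19.1% lower. Among symbols with a mean of at least 50 over both libraries, the shares were 6.85% and 7.4%. The median log2 fold of the 9 genes was -0.63. Ccng1, cyclin G1, had a normalised count of 1290 (781 reads) in the PM2.5 library, against 378 (436 reads) in the saline library (1.77, interval 1.60 to 1.94). Sesn2, a stress-inducible inhibitor of mTORC1 signalling that ATF4 also induces, had 276 (167 reads) against 1277 (1472 reads), at -2.21 (interval -2.45 to -1.98). Plk3, a polo-like kinase, had 512 against 1098 (-1.10, interval -1.28 to -0.92). Mdm2, the negative regulator of p53, was at -0.65, Bax at -0.63 and Gadd45a, the gene of this list with the highest mean, at 0.30.

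The fold of a gene was also set beside the median fold of its 10 nearest analysed genes on the chromosome, in the gene order of GRCr8. Across the 67 genes the Spearman correlation was 0.24 and the Pearson correlation 0.04, and across 11340 symbols they were 0.27 and 0.20; the points share the same 2 libraries. Neighbour medians were above 0 around Pola1 (0.46), Rfc1 (0.45), Mcm8 (0.35), Orc4 (0.33), Ccne2 (0.22) and Pole2 (0.10), whereas they were -0.49 around Hells and 0.52 around Cdkn2b. The part of this relation in the folds was not tested.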
